A study of Homo sapiens with 9 samples.

Results

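The metabolism and reception of retinoic acid were followed through 10 genes: STRA6, RDH10, DHRS3, CRABP1, CRABP2, CYP26A1, CYP26B1, RARA, RARB and RARG. They were taken by symbol from the 63856 annotated genes of the deposited tables, and 9 of the 10 had enough counts to be tested. The RNA-seq experiment addressed what activation of ESX1, a homeobox gene of the X chromosome expressed in the testis, changes in TCam-2, a human cell line derived from a testicular seminoma. Wild-type cells (WT, n = 3) were unmodified. The negative control (NC, n = 3) carried the px335_G2P vector, which encodes GFP, with nonspecific gRNAs. ESX1-activated cells (ESX1, n = 3) carried px335_G2P vectors with gRNAs for ESX1 together with PB-TRE-dCas9-VPR, a doxycycline-inducible nuclease-dead Cas9 fused to a transcriptional activator (CRISPRa). Transfected cells were selected with puromycin and doxycycline and collected at 72 h.

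NC and ESX1 cells therefore shared lipofection and selection with puromycin and doxycycline. The labels give the WT cells as unmodified, and how the WT cultures were otherwise handled is not described, so a difference between NC and WT cannot be told apart from an effect of the handling. The methods name the dCas9-VPR vector for the ESX1 cells only, so ESX1 activation and the presence of the activator also cannot be told apart. All samples were passages of 1 line, and the transfected cultures were mixed populations in which only part of the cells were GFP-positive. The culture medium contained foetal calf serum, and no added retinoid is named for any group.

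As background, cells take up retinol (vitamin A) through the membrane receptor STRA6. RDH10 oxidises retinol to retinal, DHRS3 reduces retinal back to retinol, and ALDH1A enzymes oxidise retinal irreversibly to retinoic acid. CRABP1 and CRABP2 carry retinoic acid in the cytoplasm, CYP26 enzymes hydroxylate and inactivate it, and the receptors RARA, RARB and RARG bind it as heterodimers with RXR at direct repeats of a hexamer in DNA. CYP26A1, DHRS3 and RARB are themselves well-known targets induced by retinoic acid. In the testis, retinoic acid drives spermatogonial differentiation and the entry of germ cells into meiosis, whereas CYP26B1 of somatic cells keeps the foetal testis low in it.

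ESX1, the activated gene, was read first. It had 33, 28 and 30 counts in the WT samples, 35, 27 and 34 in the NC samples and 562, 554 and 170 in the ESX1 samples. In CPM scaled to the TMM-normalized library size (normalized CPM), the ESX1 samples stood at 56.7, 55.5 and 31.3 and the 6 control samples between 2.88 and 4.06. The log2 difference was 3.75 ± 0.24 (SE) against WT and 3.85 ± 0.24 against NC, so the labels and the activated gene went together in all 9 libraries. Library totals ranged from 5212804 counts, in ESX1 replicate 3, to 10644408. The share of mitochondrial counts did not overlap between groups, at 14.5 to 15.3% in NC, 17.0 to 18.3% in WT and 19.2 to 19.9% in ESX1. The TCam-2 label was checked on 10 markers of seminoma, of which POU5F1 (mean 1262 normalized CPM in WT), TFAP2C (994) and NANOG (709) were the most abundant. UTF1, at a mean of 3.31 in WT, was the least abundant. The summed level of these 10 markers was 3781 to 4642 normalized CPM in WT, 2855 to 3063 in NC and 1602 to 1945 in ESX1, again without overlap. This sum thus differed between the groups of every comparison made here, and its part in the differences of other genes was not tested. In these bulk samples, fewer cells of a kind and less RNA per cell cannot be told apart. Markers of fibroblasts and peritubular cells summed to 179 to 336 normalized CPM in WT, 133 to 170 in NC and 110 to 228 in ESX1. Most of this was COL1A2 alone, at 172 to 332, 115 to 148 and 93.4 to 195. The means of COL1A1, ACTA2 and PDGFRA were instead higher in NC and ESX1 than in WT. Sertoli markers summed to 17.6 to 40.4 over all samples. Markers of Leydig cells and leukocytes were at most 4.44 and 1.29 normalized CPM in sum, and INSL3, HSD3B2 and CD3E were at 0 in all 9 samples.

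A gene is called here when the adjusted p of edgeR's quasi-likelihood test (Benjamini-Hochberg over all 18452 tested genes) is below 0.05 and the change is at least 2-fold. ESX1 activation went with a large rise of the retinoic acid hydroxylase CYP26A1, a smaller rise of RDH10 and a fall of DHRS3 against both controls. Against WT, 2 of the 9 tested members were called, CYP26A1 upward and STRA6 downward, where 11.5% of all tested genes were called. Against NC, CYP26A1 alone was called, where 1.78% of all genes were. Between NC and WT no member was called by edgeR or DESeq2, where 5.27% of all genes were called. At an unadjusted p below 0.05, 1 of 9 members passed between NC and WT, where 31.1% of all genes did. Without the minimum fold, 6 members passed against WT (4 higher and 2 lower, 28.8% of all genes), 3 passed against NC (2 higher and 1 lower, 4.24% of all genes) and none passed between the controls (17.1% of all genes). The samples of the compared groups did not overlap for 5 members against WT, 3 against NC and 2 between NC and WT, compared with 40.3%, 22.6% and 37.6% of all tested genes. The median log2 difference of the 9 members was 0.83 against WT, 0.51 against NC and 0.18 between the controls, with the median of all tested genes between 0.00 and 0.01. These counts and medians cover members that passed the filter on low counts, and CYP26A1 passed it only because of the ESX1 samples. WT and NC are both compared with the same ESX1 samples, so the results against them are not independent.

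**Figure D1:**
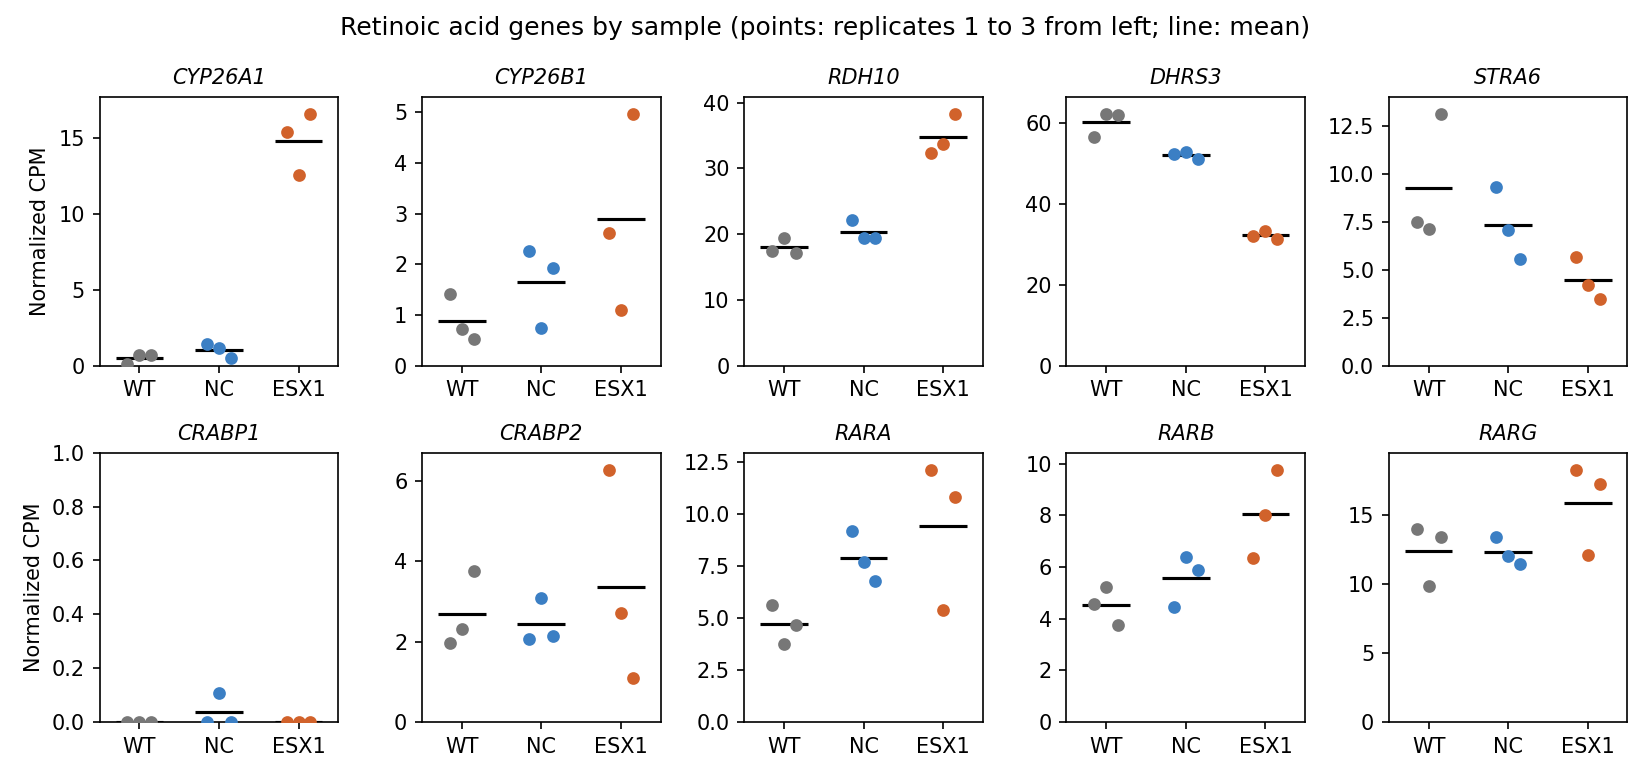
Normalized CPM (linear axes from 0) of the 10 genes in each of the 9 samples, with points for replicates 1 to 3 from left to right in each group and a line at the group mean. CYP26A1, RDH10 and DHRS3 separate the ESX1 samples from all 6 controls, whereas CRABP2, RARA and RARG overlap.

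CYP26A1 (ENSG00000095596.11, chr10:93073475-93077890, GRCh38) encodes the enzyme that clears retinoic acid. Its counts were 1, 5 and 7 in WT, 14, 11 and 5 in NC and 152, 125 and 90 in ESX1. These correspond to 0.11, 0.73 and 0.73 normalized CPM in WT, 1.44, 1.17 and 0.51 in NC and 15.3, 12.5 and 16.6 in ESX1. Each ESX1 sample lay far above every control sample, and WT and NC overlapped. The means were 0.52 ± 0.36 (SD, n = 3), 1.04 ± 0.48 and 14.8 ± 2.07. The fitted difference was 28.3-fold against WT (log2 4.82 ± 0.43 SE, edgeR adjusted p = 5.06e-07) and 14.0-fold against NC (log2 3.81 ± 0.38, edgeR adjusted p = 1.29e-05). With 1 to 14 counts in the control samples, the size of these folds rests on few reads, and the 95% intervals of the log2 differences were 3.92 to 5.73 for WT and 3.01 to 4.61 for NC. NC exceeded WT by 1.01, with an interval from −0.14 to 2.16 (edgeR adjusted p = 0.218). Of the control samples, 0 in WT and 2 in NC reached the filter's minimum for CYP26A1. It was thus tested only because of the ESX1 samples, where it is high, and could be called against the controls only upward. CYP26A1 is among the genes the study selected on these same samples, so its rise here is not independent evidence. On the authors' log2 values the difference was smaller, 2.53 against WT and 2.21 against NC in limma, and it remained called. Without the mitochondrial genes the log2 differences were 4.84 and 3.81.

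The promoter windows of the RefSeq table (GRCh38.p14, 250 bases before to 50 after an annotated start) were searched for the element that RAR and RXR bind, since CYP26A1 and RARB are known to carry it. A direct repeat was defined as a pair of half-sites (the consensus AGGTCA, its variant AGTTCA, or the forms of both that begin with G, GGGTCA and the variant GGTTCA) with a spacing of 5 bases (DR5), 2 bases (DR2) or 1 base (DR1), on either strand. Of the 10 members, 9 matched the table (RDH10 did not), with 21 windows. Only CYP26A1 and RARB held a DR5, and none held a DR2 or DR1. None of these repeats was found in 30 other genes of retinoid handling and signalling with a window. None was found either in 11 genes known to be induced by retinoic acid. Both sites are shown on the strand of the gene with 6 bases on either side and the half-sites in capitals.
CYP26A1: taaagaTGAACTttgggTGAACTaattgt
RARB: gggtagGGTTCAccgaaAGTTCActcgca
The CYP26A1 repeat lies at chr10:93073803-93073819, 90 to 74 bases before the RefSeq start at 93073893, and reads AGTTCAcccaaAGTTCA on the opposite strand. It falls inside the upstream exon of CYP26A1 (chr10:93073475-93073834) in the annotation used for counting. The RARB repeat lies at chr3:25428210-25428226, 53 to 37 bases before an internal start of the gene at 25428263, outside its annotated exons. Over all promoters, 31 of 35116 windows (0.0883%) and 29 of 27305 genes (0.106%) held a DR5. Windows with a DR2 made up 0.0399% and those with a DR1 0.131%. CYP26A1 and RARB were known to carry the element before the search, so these shares are not read as an enrichment. A match describes the letters of the window only, and none of these windows was assayed for binding.

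CYP26B1 (ENSG00000003137.8, chr2:72129238-72148038), the related hydroxylase, was low throughout. It stood at 1.41, 0.73 and 0.52 normalized CPM in WT, 2.27, 0.75 and 1.93 in NC and 2.62, 1.10 and 4.97 in ESX1. The groups overlapped in every comparison, and the ESX1 samples themselves spanned more than the controls did. The log2 difference was 1.62 against WT (95% interval 0.35 to 2.89, edgeR adjusted p = 0.0527) and 0.74 against NC (−0.43 to 1.91, edgeR adjusted p = 0.577). The first of these passed the threshold under 7 alternatives, DESeq2 among them (1.68, adjusted p = 0.0322). The difference between CYP26A1 and CYP26B1 in their response was not tested.

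RDH10 (ENSG00000121039.9), which forms retinal from retinol, stood at 17.4, 19.4 and 17.2 normalized CPM in WT and at 22.2, 19.4 and 19.5 in NC. The ESX1 samples were at 32.4, 33.8 and 38.3. All 3 lay above all 6 controls, while WT and NC overlapped. The rise was 1.93-fold against WT (log2 0.95 ± 0.15, edgeR adjusted p = 0.000172) and 1.70-fold against NC (log2 0.77 ± 0.15, edgeR adjusted p = 0.0054), below the 2-fold minimum. The interval between NC and WT was −0.14 to 0.50 around a log2 difference of 0.18. Of the 5321 exon bases of RDH10, 5.22% overlap the antisense gene RDH10-AS1, which had 5 to 37 counts per sample where RDH10 had 134 to 337. The header of the count table shows no strand option, so reads of these shared bases cannot be assigned to a strand.

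DHRS3 (ENSG00000162496.8, chr1:12567910-12617731), which runs the reverse step from retinal to retinol, moved the other way. Its levels were 56.4, 62.1 and 61.8 normalized CPM in WT, 52.3, 52.8 and 51.1 in NC and 31.9, 33.4 and 31.3 in ESX1. The 3 groups did not overlap, and the ESX1 samples were the lowest. DHRS3 fell 1.87-fold against WT (log2 −0.90 ± 0.12, edgeR adjusted p = 2.67e-05) and 1.62-fold against NC (log2 −0.69 ± 0.12, edgeR adjusted p = 0.00211). NC was also below WT in every sample, by a log2 difference of −0.21 that did not pass (edgeR adjusted p = 0.233). DHRS3 shares no exon base with another annotated gene.

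The counts of RDH10 and DHRS3 in a library give a ratio that does not depend on library scaling. Chosen after the values of both genes were seen, it was 0.308, 0.313 and 0.278 RDH10 counts per DHRS3 count in WT, 0.424, 0.368 and 0.381 in NC and 1.02, 1.01 and 1.22 in ESX1. The means were 0.300 ± 0.019 (SD), 0.391 ± 0.029 and 1.08 ± 0.12. The 3 groups did not overlap, and no test is given because the pair was chosen for its values.

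STRA6 (ENSG00000137868.18, chr15:74179466-74212267), the uptake receptor, stood at 7.50, 7.11 and 13.1 normalized CPM in WT, 9.29, 7.04 and 5.57 in NC and 5.65, 4.21 and 3.49 in ESX1. The ESX1 samples were below all WT samples, but the highest of them exceeded the lowest NC sample. STRA6 was called lower against WT at 2.05-fold (log2 −1.04 ± 0.30, edgeR adjusted p = 0.0152). WT replicate 3, at 13.1, was apart from the other WT samples, and without it the log2 difference was −0.70 (edgeR adjusted p = 0.113). It also lost the call without ESX1 replicate 3 (−0.89, edgeR adjusted p = 0.0718). CCDC33, on the other strand, shares 7.02% of the exon bases of STRA6 and had 3 to 15 counts per sample. Against NC the log2 difference was −0.69 with a 95% interval from −1.32 to −0.05 (edgeR adjusted p = 0.261).

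CRABP1 (ENSG00000166426.7) was not tested: it had 1 count in NC replicate 2 and 0 in the other 8 samples. A count of 0 allows a level of up to 3 counts, or 0.300 to 0.552 normalized CPM depending on the library, for counting error only. Of its exon bases, 47.2% are shared with RP11-5O23.2, a gene on the other strand that had no counts. CRABP2 (ENSG00000143320.8, chr1:156699606-156705816) delivers retinoic acid to the receptors in the nucleus. It stood at 1.96, 2.32 and 3.74 normalized CPM in WT, 2.06, 3.09 and 2.13 in NC and 6.26, 2.70 and 1.10 in ESX1. ESX1 replicate 1 was the highest and ESX1 replicate 3 the lowest of all 9 samples, so no direction can be given. The log2 difference was 0.38 against WT and 0.53 against NC (edgeR adjusted p = 0.584 and 0.654), and without ESX1 replicate 1 both turned negative, to −0.42 and −0.27.

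RARB (ENSG00000077092.18, chr3:25174332-25597932), the receptor gene with the DR5 shown above, stood at 4.57, 5.22 and 3.74 normalized CPM in WT, 4.44, 6.40 and 5.88 in NC and 6.36, 8.01 and 9.75 in ESX1. Every ESX1 sample was above every WT sample, and the lowest ESX1 sample was just under the highest NC sample. The rise against WT was 1.77-fold (log2 0.83 ± 0.27, edgeR adjusted p = 0.0277). Against NC the log2 difference was 0.51, with an interval from −0.03 to 1.06 (edgeR adjusted p = 0.355). RARB shares 0.757% of its exon bases with TOP2B on the other strand, which had 1428 to 3962 counts per sample. Within the ESX1 group, replicate 3, the shallowest library, had the lowest level of ESX1 and the highest levels of CYP26A1, RDH10, CYP26B1 and RARB. STRA6, CRABP2, RARA and RARG were highest in replicate 1, and DHRS3 in replicate 2. CYP26A1 was close in replicates 1 and 3 (15.3 and 16.6 normalized CPM). These orders were read after the values were seen and were not tested.

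RARA (ENSG00000131759.17, chr17:40309192-40357643), a broadly expressed receptor, stood at 5.65, 3.77 and 4.68 normalized CPM in WT, 9.19, 7.68 and 6.79 in NC and 12.1, 5.41 and 10.9 in ESX1. The NC samples lay above all WT samples, whereas ESX1 replicate 2 fell back among the WT values. Against WT the rise was 1.98-fold (log2 0.98 ± 0.30, edgeR adjusted p = 0.0192), just short of the minimum fold. Relative to NC the log2 difference was 0.25 (interval −0.34 to 0.85, edgeR adjusted p = 0.742), and that of NC to WT was 0.73 (0.11 to 1.36, edgeR adjusted p = 0.0983). RARA shares 17.9% of its exon bases with RARA-AS1 and CTD-2267D19.1, which had at most 10 and 4 counts in a sample.

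RARG (ENSG00000172819.16, chr12:53210567-53232980), the receptor subtype of spermatogonia, stood at 14.0, 9.87 and 13.4 normalized CPM in WT, 13.4, 12.1 and 11.5 in NC and 18.3, 12.1 and 17.3 in ESX1. The groups overlapped throughout. The log2 difference was 0.34 against WT (interval −0.09 to 0.77) and 0.36 against NC (−0.07 to 0.79), with edgeR adjusted p = 0.233 and 0.419. NC differed from WT by −0.02, from −0.46 to 0.41, and its sign turned with the scaling.

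**Figure D2:**
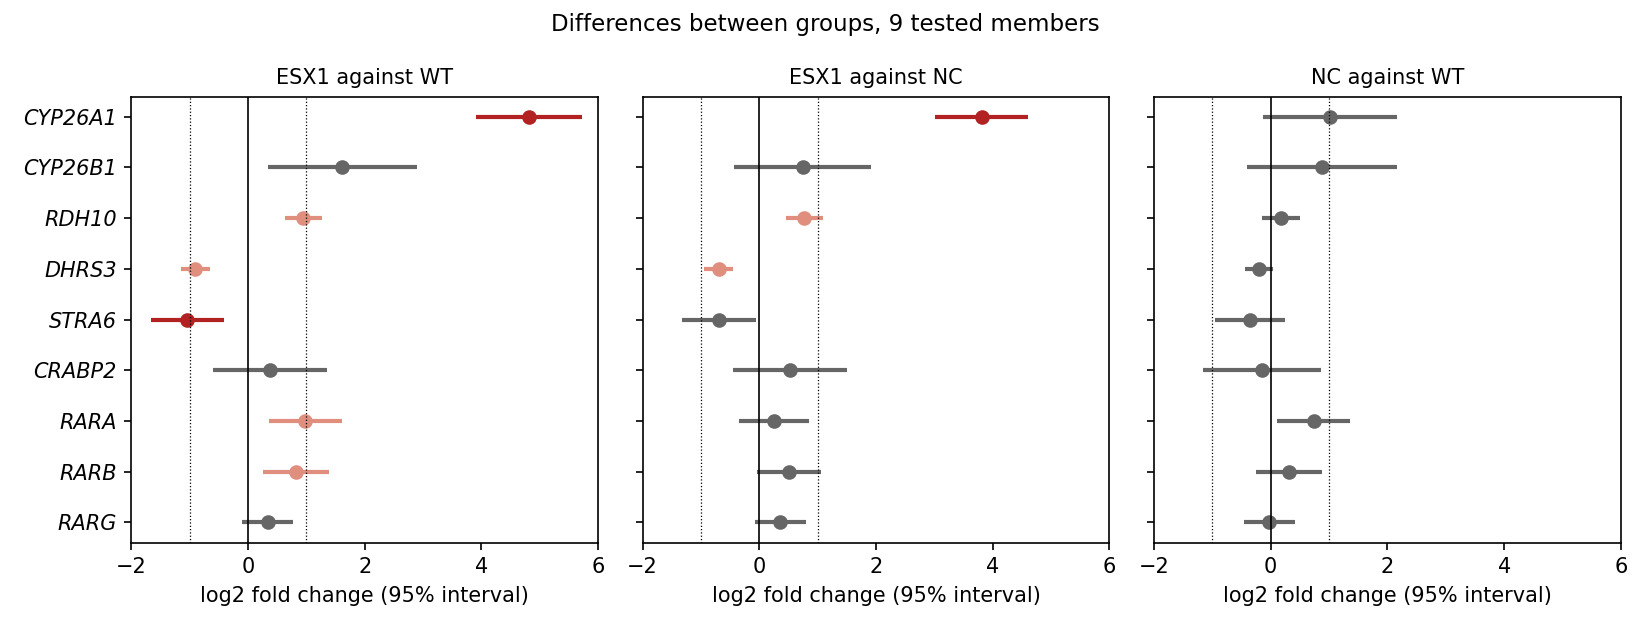
Log2 fold changes (points) with 95% intervals (bars) from the edgeR fit for the 9 tested genes in the 3 comparisons; dotted lines mark 2-fold. Dark red genes were called, light red genes had an adjusted p below 0.05 without reaching 2-fold, and grey genes did not pass. CYP26A1 stands apart at 4.82 and 3.81 against the 2 controls.

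Levels of different genes can be set side by side only per length, here as normalized CPM per kilobase of annotated exon. DHRS3 was the highest member in all 3 groups, at 19.8 ± 1.05 (SD, n = 3) in WT, 17.2 ± 0.30 in NC and 10.6 ± 0.35 in ESX1, and did not overlap the next gene. RDH10 was in second place in each group, at 3.38 ± 0.24, 3.83 ± 0.30 and 6.54 ± 0.58. In WT, the ranges of RDH10, CRABP2 (2.43 ± 0.86) and RARG (2.43 ± 0.44) overlapped from neighbour to neighbour. RARB (1.22 ± 0.20), STRA6 (1.20 ± 0.44) and RARA (0.99 ± 0.20) followed in WT and likewise overlapped each other. CYP26B1 (0.177 ± 0.093) and CYP26A1 (0.175 ± 0.120) were the lowest members with counts and could not be ordered. In NC, RARG (2.40 ± 0.20), CRABP2 (2.21 ± 0.53), RARA (1.67 ± 0.26), RARB (1.51 ± 0.28) and STRA6 (0.95 ± 0.24) overlapped from neighbour to neighbour, and CYP26A1 (0.351 ± 0.162) could not be ordered against CYP26B1 (0.329 ± 0.159). In ESX1, CYP26A1 (4.98 ± 0.70) stood between RDH10 and RARG (3.10 ± 0.64), and overlapped neither of them. CRABP2 (3.05 ± 2.40), RARB (2.17 ± 0.46) and RARA (2.0 ± 0.75) overlapped their neighbours in ESX1, as did STRA6 (0.58 ± 0.14) and CYP26B1 (0.58 ± 0.39) at the lower end.

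**Figure D3:**
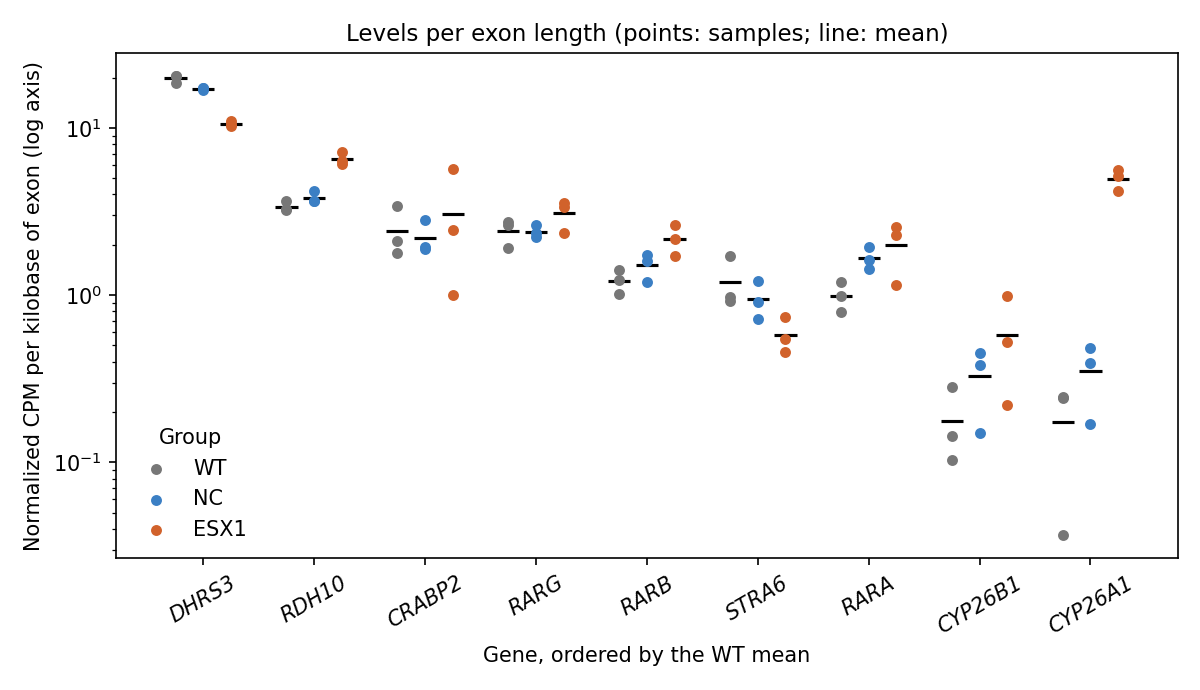
Normalized CPM per kilobase of exon on a log axis for 9 members ordered by the WT mean, with points for samples and a line at the mean of each group. CRABP1, at 0 in 8 of 9 samples, is not drawn. CYP26A1 moves from the lower end in WT (0.175) to 4.98 in ESX1, and DHRS3 stays the highest gene.

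The other genes of retinoid handling and signalling were read from a list of 38, of which 25 were tested. Against WT, 3 of the 25 were called, all higher (11.5% of all genes), and without the minimum fold 6 were higher and 1 lower (28.8% of all genes). Between NC and WT 2 were called (5.27% of all genes). Against NC none was called by edgeR or DESeq2, where edgeR called 1.78% of all genes. None of the 25 had an unadjusted p below 0.05 against NC in edgeR, where 16% of all genes did. The median log2 difference of the 25 was 0.30 against WT, 0.16 against NC and 0.06 between NC and WT. ALDH1A2, which forms retinoic acid from retinal, stood at 1.74, 1.31 and 1.35 normalized CPM in WT, 2.79, 3.09 and 4.05 in NC and 2.02, 3.51 and 4.78 in ESX1. It was called higher against WT (log2 1.18, edgeR adjusted p = 0.0345), and its log2 difference was 0.01 against NC, with an interval from −0.76 to 0.79. The call against WT was lost in 7 of 17 alternatives: with limma (0.55), without a filter, with only the 6 samples compared, and without WT replicate 2, WT replicate 3, ESX1 replicate 2 or ESX1 replicate 3 (0.93, edgeR adjusted p = 0.137, for the last). ALDH8A1, an aldehyde dehydrogenase able to use 9-cis-retinal, had 5, 0 and 4 counts in WT, 13, 20 and 24 in NC and 41, 33 and 19 in ESX1. It was called higher than WT in ESX1 (log2 3.36, edgeR adjusted p = 0.000287) and in NC (2.47, edgeR adjusted p = 0.00786). RDH16, a retinol dehydrogenase, had 1 to 5 counts in WT, 15 to 22 in NC and 13 to 25 in ESX1. It too was called in both transfected groups (log2 2.57 and 2.21, edgeR adjusted p = 0.00197 and 0.0107), while its difference between ESX1 and NC was 0.36 (interval −0.58 to 1.30). For ALDH8A1 that difference was 0.89, from −0.05 to 1.82, so for all 3 genes the interval included 0. No WT sample of ALDH8A1 or RDH16 reached the filter's minimum, so they were tested only because of the transfected groups and could be called against WT only upward.

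ALDH1A3, another enzyme that forms retinoic acid, was at 14.7 to 24.1 normalized CPM in WT, 16.3 to 19.3 in NC and 19.8 to 29.0 in ESX1, with log2 differences of 0.37 against WT and 0.39 against NC (edgeR adjusted p = 0.187 and 0.361). ALDH1A1 had 0 to 8 counts per sample and was not tested. Of the heterodimer partners, RXRA (log2 0.25 against WT and −0.07 against NC) and RXRB (0.30 and 0.36) were not called in any comparison, and RXRG had at most 1 count. FABP5, which can carry retinoic acid, was not called either (−0.61 against WT and −0.34 against NC).

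Genes known to be induced by retinoic acid in various cells were read from a list of 18, of which 10 were tested. Against WT, 4 of 10 were called, all higher and GPRC5A, RARRES1 and BTG2 among them, beside 11.5% of all genes. Against NC 1 of 10, GPRC5A, was called, beside 1.78% of all genes. Between NC and WT none was called by edgeR or DESeq2, where edgeR called 5.27% of all genes. But 7 of 10 had an unadjusted p below 0.05 in edgeR, as did 31.1% of all genes. GPRC5A, a retinoic acid-inducible membrane receptor, stood at 39.3, 19.0 and 22.4 normalized CPM in WT, 44.3, 39.5 and 39.1 in NC and 121, 67.0 and 149 in ESX1. The ESX1 samples were above all controls, with a log2 difference of 2.05 against WT (edgeR adjusted p = 1.71e-05) and 1.45 against NC (edgeR adjusted p = 0.00234). RARRES1, named for its response to a retinoid, was at 0.58 to 1.41 normalized CPM in WT, 2.24 to 2.79 in NC and 2.70 to 3.31 in ESX1. Its log2 difference was 1.36 against WT and 0.25 against NC (edgeR adjusted p = 0.0188 and 0.819), and the first was not called without WT replicate 2 (1.08, edgeR adjusted p = 0.0798) or ESX1 replicate 3 (1.32, edgeR adjusted p = 0.0503). The antiproliferative gene BTG2 differed by 1.11 and 0.38 (edgeR adjusted p = 0.000398 and 0.348), and was below 2-fold against WT without WT replicate 3 (0.84). STRA8, the meiotic gatekeeper induced by retinoic acid in germ cells, had 3 counts in ESX1 replicate 1 and at most 1 in any other sample. The median log2 difference of the 10 tested genes was 0.45 against WT, 0.27 against NC and 0.50 between NC and WT. The members CYP26A1, RARB and DHRS3, named above as induced by retinoic acid, are not on this list. Relative to WT, CYP26A1 and RARB were higher in ESX1 (log2 4.82 and 0.83) and DHRS3 was lower (−0.90).

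Over the 9 samples, the 5 tested genes whose log2 normalized CPM followed CYP26A1 most closely were KLHL24 (Pearson r = 0.984), RRAGD (0.982), HSPA2 (0.979), RP11-57H14.5 (0.978) and NPTX1 (0.978). This is a description over 9 libraries that share the same 3 groups. RRAGD rose from a mean of 2.60 normalized CPM in WT and 5.47 in NC to 55.8 in ESX1, and NPTX1 from 0.76 in both controls to 36.7. KLHL24 and HSPA2 differed less, at 33.8, 43.1 and 89.3 and at 56.7, 66.1 and 108. RP11-57H14.5 was low throughout, with means of 0.58 in WT, 0.69 in NC and 1.98 in ESX1. It was not called against NC (log2 1.49, edgeR adjusted p = 0.11). Among the members, RDH10 followed CYP26A1 at r = 0.97 and DHRS3 ran opposite to it at −0.94.

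Of the 10 seminoma markers, 7 were called lower against WT, beside 11.5% of all genes. Against NC 1 of 10 was called lower, NANOG (log2 −1.26), beside 1.78% of all genes. SOX17 was not among them, with means of 226 normalized CPM in WT, 250 in NC and 244 in ESX1. Its log2 difference was 0.11 against WT and −0.03 against NC (edgeR adjusted p = 0.594 and 0.95). Without the minimum fold, 7 of the 10 were lower against NC (4.24% of all genes). In the transfected control, 2 of the 10, KIT and LIN28A, were called lower than in WT (5.27% of all genes). Among 10 tested of 16 markers of other cells, 1 was called against NC (1.78% of all genes). It was SOX9, a Sertoli and progenitor gene, which was higher (log2 1.83, edgeR adjusted p = 0.012). Against WT SOX9 differed by 0.86 (edgeR adjusted p = 0.0953), and NC lay below WT in every sample (−0.97, edgeR adjusted p = 0.118). The Sertoli markers AMH and GATA4 differed from NC by 0.29 and −0.16 and were not called, and WT1 was not tested. The collagen gene COL1A1 was called higher than WT in ESX1 and in NC (log2 2.27 and 2.19), with 0.07 between ESX1 and NC. COL1A2, another collagen gene, went the other way, by −0.90 in both against WT (edgeR adjusted p = 0.01 and 0.0163), below the 2-fold minimum. SOX2, a marker of embryonal carcinoma, was called higher in NC than in WT (log2 1.23, edgeR adjusted p = 0.0222). Of these 10 tested markers, 1 was called in ESX1 against WT (11.5% of all genes) and 2 in NC against WT (5.27% of all genes). The summed level of the 16 was 216 to 369 normalized CPM in WT, 176 to 210 in NC and 141 to 280 in ESX1, most of it COL1A2. The part of these markers in the differences of the retinoid genes was not tested.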

How the data were processed

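Total RNA of TCam-2 cells was depleted of ribosomal RNA, made into stranded libraries and sequenced in pairs. The authors aligned reads to GRCh38 (HISAT2 2.0.5 in the submitters' processing notes) and deposited raw counts per gene. Those notes name featureCounts 1.6.5, while the count table's header names version 1.5.2 with GENCODE 26 exons and no strand option. A second deposited table holds log2 values that the authors normalized, used here as an alternative only. Its rows carry symbols, and each count mapped to 1 log2 value within a sample. No column of the authors' comparisons was used.

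From the counts, genes were kept by filterByExpr (a CPM equal to about 10 counts in at least 3 samples), libraries were scaled by TMM, and 3 contrasts were tested in 1 fit of all 9 samples with edgeR 4.0.16 (glmQLFit, glmQLFTest, R 4.3.3). The Benjamini-Hochberg adjustment covered 18452 genes, and calls needed at least a 2-fold difference beside an adjusted p under 0.05. Intervals are 95% intervals of the fitted log2 difference. The study describes 3 biological replicates per group, and passages of 1 line measure only the spread between cultures. On simulated counts for ESX1 against NC (18452 genes, 200 changed), 68% of 2-fold and 96% of 4-fold changes passed in edgeR, with 12 false positives. Passing meant an adjusted p below 0.05 with no minimum fold, which is looser than a call, so the recovery of calls was not measured. The counts were drawn with 1 dispersion (spread beyond counting error) shared by all genes. Alternatives used DESeq2 1.42.0 and limma 3.58.1, other scaling, filters and thresholds, a replicate block, no mitochondrial genes, and fits without each sample.

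The members and the gene lists were chosen with earlier results of these data known. Named were the 10 members, ESX1, the list genes called in a comparison with others picked by role, the genes that overlap a member and the 5 genes most like CYP26A1, the member with the smallest adjusted p against NC. CYP26C1, RDH11 and markers of cell types were named outside this rule. Single results of 2 genes of the lists are not reported here.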

Additional observations from a re-analysis of the deposited data

How the results depend on the processing

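Of 650 recomputed log2 differences, 598 kept their direction and their side of the call, 22 lost a call, 18 gained one and 12 reversed. CYP26A1 stayed called against both controls wherever it was tested, from 2.21 to 4.12 against NC, and dropped out where at least 10 counts were required in every sample. RDH10 and DHRS3 kept their directions, with adjusted p-values against NC of at most 0.0437 and 0.0173. The log2 difference of ESX1 itself against NC ranged from 2.91 to 4.09.

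Members called against WT, 2 in the report, were 4 with upper-quartile scaling and 4 with DESeq2, 1 with limma on the deposited log2 values, 1 with at least 10 counts in every sample, 1 at an adjusted p below 0.01 and 6 without the minimum fold. They ranged from 1 to 4 with single samples left out (4 without WT replicate 1 or NC replicate 2, 1 without WT replicate 3 or ESX1 replicate 3). RARA and CYP26B1 were the members gained most often, and RARA reached 1.27 without ESX1 replicate 2. STRA6 lost its call against WT with upper-quartile scaling (−0.93), limma (−0.67), at least 10 counts (−0.99) and without ESX1 replicate 2 (−0.99). Against NC the count of 1 became 0 with at least 10 counts and 3 without the minimum fold. Pathway genes called against WT, 3, became 1 with limma, 0 with at least 10 counts and 7 without the minimum fold. Between NC and WT, 2 became 0 with limma, 4 without a filter, 0 with at least 10 counts and 1 at an adjusted p below 0.01. Induced genes called against WT, 4, became 2 with limma and 2 to 5 with single samples left out (2 without WT replicate 2). Between NC and WT, 0 became 2 without the minimum fold and at most 1 with single samples left out.

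The reversed values were all of genes that were not called. With single samples left out, CRABP2 ranged from −0.42 (without ESX1 replicate 1) to 0.76 against WT, from −0.27 (without ESX1 replicate 1) to 0.90 against NC and from −0.35 to 0.18 (without WT replicate 3) between NC and WT. RARA against NC ranged from −0.0023 (without ESX1 replicate 1) to 0.54. RARG between NC and WT ranged from −0.16 to 0.065 with single samples left out, and turned to 0.065 with upper-quartile scaling, 0.0038 with limma, 0.0196 with at least 10 counts and 0.0096 with only the 6 samples compared. The causes were not tested.

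Whether the replicate numbers pair the samples cannot be told from these values. Same-number correlations of deviations ranged from −0.03 to 0.19, and the highest different-number correlations from −0.08 to 0.07. For replicate 1 of ESX1 against NC they were 0.19 and −0.08. With the replicate block, 3 members were called against WT (CYP26B1 was gained), 1 against NC and 0 between the controls, and ESX1 was at 3.81. Over all genes, the block gave 2109, 358 and 1003 calls against WT, against NC and between the controls, where the fit without it gave 2131, 328 and 973. Limma gave 937, 177 and 338, and at least 10 counts in every sample, which left 13485 genes, gave 1192, 200 and 563. Calls against NC fell to 209 without NC replicate 3. Upper-quartile scaling moved the median of all genes by 0.10 against WT. Counts of 1 to 14 per control sample limit the fold of CYP26A1. At 3 samples a group, 68% of simulated 2-fold changes had an adjusted p below 0.05 in edgeR, with no minimum fold required.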

Other observations

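CYP26C1, the remaining retinoic acid hydroxylase of the family, had too few counts to be tested and was named after its values were seen. It had 2, 4 and 6 counts in WT, 6, 5 and 5 in NC and 17, 16 and 3 in ESX1. In normalized CPM these were 0.22, 0.58 and 0.62 in WT, 0.62, 0.53 and 0.51 in NC and 1.72, 1.6 and 0.55 in ESX1. ESX1 replicates 1 and 2 were above all controls, and ESX1 replicate 3, the shallowest library, was among them, with a level that its 3 counts hardly fix.

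RDH11, a retinal reductase, separated WT from both transfected groups. It stood at 94.7, 112 and 120 normalized CPM in WT, 56.5, 58.2 and 62.6 in NC and 55.7, 64.2 and 53.7 in ESX1. The log2 difference was −0.91 in ESX1 and −0.88 in NC against WT, below the 2-fold minimum in both, and −0.03 between ESX1 and NC, with a 95% interval from −0.29 to 0.23. It was named after its values were seen.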
